A study of Mus musculus with 12 samples.

Results

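Interleukins and colony-stimulating factors are secreted cytokines, and several belong to the senescence-associated secretory phenotype (SASP), the mix of proteins that senescent cells release. The 10 genes described here, Il1a, Il1b, Il6, Il11, Il15, Il33, Il34, Csf1, Csf2 and Csf3, were taken by gene name from a table of 55421 genes, and each matched 1 row. Their RNA was measured in bulk poly(A) libraries of MOC2, a mouse oral squamous carcinoma line grown in culture. Of the 12 libraries, 6 came from MOC2-25 cells, labelled able to release extracellular vesicles (EV-proficient), and 6 from MOC2-27 cells, labelled EV-deficient. Within each label, 3 libraries were DMSO controls and 3 came from cells given 600 nM paclitaxel, a microtubule-stabilising drug, for 48 h to induce senescence. All groups thus share the MOC2 background, and the study compared vesicle-blocked with vesicle-releasing senescent cells. Every EV-proficient library is from MOC2-25 and every EV-deficient one from MOC2-27, so the block on vesicle release and other differences between these lines cannot be told apart. Which gene was blocked is not given, so the block could not be checked in the RNA.

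Senescent cells keep transcribing cytokine genes after they stop dividing, largely through NF-kB, C/EBP and AP-1 factors. IL-1 alpha acts at the top of this programme: it signals through the IL-1 receptor on the same or neighbouring cells and raises IL-6 and other cytokines. The colony-stimulating factors act mainly on myeloid cells: CSF1 and IL-34 keep macrophages alive through CSF1R, CSF2 (GM-CSF) drives granulocytes and macrophages, and CSF3 (G-CSF) drives neutrophils.

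Library totals ran from 23263472 counts in EV-proficient paclitaxel replicate 3 to 62955757 in EV-deficient DMSO replicate 1, so that 3 counts, taken as the floor, equal 0.0477 to 0.129 counts per 1000000 of the library total (CPM). Of 8 squamous epithelial markers, 6 had at least 1 CPM in every group, while Krt5 and Trp63 were under 1 CPM. The list summed to 1872 to 2010 CPM in EV-proficient DMSO and 1956 to 2028 in EV-proficient paclitaxel, but to 2865 to 3113 in EV-deficient DMSO and 1503 to 1677 in EV-deficient paclitaxel, where mean Krt14 was 682 and 80.0 CPM and mean Krt6a 318 and 2.48. Macrophage and leukocyte markers summed to 16.9 to 19.1 CPM in EV-proficient DMSO, 31.4 to 31.6 in EV-deficient DMSO, 75.2 to 81.7 in EV-proficient paclitaxel and 56.2 to 85.3 in EV-deficient paclitaxel, and 2 or 3 of the 8 were at or under 3 counts in each library of a group. In the paclitaxel groups most of that sum was Cd68 (group means 30.05 and 29.96 CPM) and Cd14 (35.1 and 34.5). In EV-deficient DMSO Csf1r, which is on the list, was the largest part (12.4 CPM, against 0.94 in EV-proficient DMSO), and Cd68 (7.92 and 6.47) and Cd14 (10.1 and 10.15) were close between the DMSO groups, while Adgre1, Lyz2 and Tyrobp were at or near 0. Fibroblast markers summed to 1.58 to 3.33 CPM over the DMSO libraries and 5.38 to 8.65 over the paclitaxel libraries, and endothelial markers to 2.04 to 2.76 and 3.28 to 4.94. The part of these marker lists in the cytokine values was not tested.

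A feature of the libraries bears on every comparison of the EV labels. An added row named dngfr averaged 8.99 ± 3.23 CPM (SD, n = 3) in EV-proficient DMSO and 2.15 ± 0.35 in EV-deficient DMSO. Under paclitaxel the order was the other way round, with 3.24 ± 0.68 CPM in EV-proficient and 10.9 ± 1.42 in EV-deficient cells. A row named gfp had 0 counts in all 12 libraries. The second principal component, with 16.4% of the variance, also set EV-proficient DMSO (27.2 to 36.5) beside EV-deficient paclitaxel (34.2 to 43.5), and EV-deficient DMSO (-24.7 to -20.6) beside EV-proficient paclitaxel (-64.6 to -37.9). Whether EV labels were exchanged in 1 treatment was not tested. The paclitaxel effect averaged over the EV labels has the same value whichever label the groups of a treatment carry, so it is given for the cytokines together before the values by label, and beside the values by label for the pathway genes named.

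**Figure D1:**
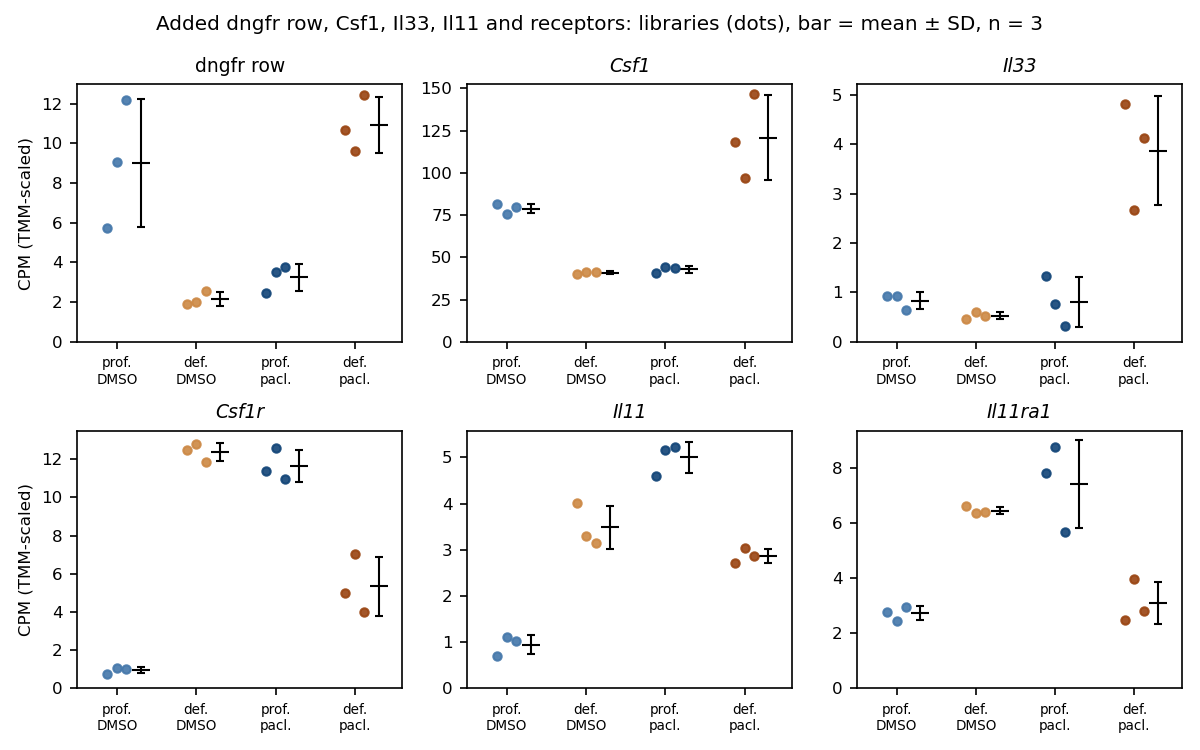
CPM on scaled library sizes (y axis, linear from 0) of the added dngfr row, Csf1, Il33, Il11, Csf1r and Il11ra1 in the 4 groups, with dots for libraries, bars for means and error bars for the SD (n = 3). The dngfr row and Csf1 are higher in EV-proficient DMSO and EV-deficient paclitaxel, while Il11, Csf1r and Il11ra1 are lowest in EV-proficient DMSO.

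The promoter windows of Il1a, Il6, Il11 and Csf1 are printed because they hold matches to NF-kB or AP-1 type letters and belong to the first gene of the IL-1 cascade, the gene least detected, and the genes with large differences of opposite sign between the EV labels. Each is the 250 bases before a RefSeq transcript start (GRCm38.p6), 5′ to 3′ on the gene's strand, with motif matches in capitals.
Il1a, chr2:129309973-129310222, minus strand: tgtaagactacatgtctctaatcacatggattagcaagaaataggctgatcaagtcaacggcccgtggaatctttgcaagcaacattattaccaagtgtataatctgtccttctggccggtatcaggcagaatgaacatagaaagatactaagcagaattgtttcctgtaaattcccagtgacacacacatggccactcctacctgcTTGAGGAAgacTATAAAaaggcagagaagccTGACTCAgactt
Il6, chr5:30012864-30013113, plus strand: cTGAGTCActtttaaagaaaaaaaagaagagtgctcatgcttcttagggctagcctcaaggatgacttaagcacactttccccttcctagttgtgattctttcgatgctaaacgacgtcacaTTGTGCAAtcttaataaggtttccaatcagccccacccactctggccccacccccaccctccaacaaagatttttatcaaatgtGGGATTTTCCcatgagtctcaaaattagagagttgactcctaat
Il11, downstream start, chr7:4778142-4778391, minus strand: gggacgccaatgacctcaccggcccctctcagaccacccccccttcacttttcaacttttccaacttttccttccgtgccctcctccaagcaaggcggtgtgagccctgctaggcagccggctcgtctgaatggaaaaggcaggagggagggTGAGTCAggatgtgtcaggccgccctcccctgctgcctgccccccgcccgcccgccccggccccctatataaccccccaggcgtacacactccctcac
Csf1, chr3:107760470-107760719, minus strand: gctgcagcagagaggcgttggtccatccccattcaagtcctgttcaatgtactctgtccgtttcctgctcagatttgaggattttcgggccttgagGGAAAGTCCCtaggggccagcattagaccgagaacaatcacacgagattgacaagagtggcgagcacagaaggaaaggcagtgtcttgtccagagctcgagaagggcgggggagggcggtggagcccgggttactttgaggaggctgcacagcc
Il1a holds a C/EBP type match (TTGAGGAA) 43 bases before the start, a TATAAA at 32 and an AP-1 type TGACTCA at 12. Il6 holds an AP-1 type TGAGTCA at the far end of the window, a C/EBP type TTGTGCAA at 128 and a kB type GGGATTTTCC at 44. The printed Il11 window holds TGAGTCA at 98, and the window at the upstream start of Il11 (chr7:4782858-4783107) holds no match to any of the letters searched. The Csf1 window holds GGAAAGTCCC at 154, which is a kB type match on the opposite strand. The letters searched, on both strands, were GGG, any 2 bases, TT, any base and CC (kB type, in 4.11% of 32851 promoter windows of the same length), TGANTCA (AP-1 type, 6.75%), TTGNGNAA (C/EBP type, 11.7%), TATAAA (12.4%), GAAA, any 2 bases and GAAA (IRF type, 2.98%) and GAG, any base and TTCCAC (CK-1, 0.201%). RefSeq windows matched 7 of the 10 genes, with 9 windows in all, and none of the 9 held the IRF type or CK-1 letters. Il15, Il34 and Csf3 were not matched. A match describes letters in the window, not bound sites.

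Paclitaxel against DMSO was first compared as an average over both EV labels. Of the 10 genes, 9 passed the filter on low counts, and all 9 were called at an edgeR quasi-likelihood adjusted p under 0.05: Il1a, Il1b, Il11, Il15, Il33, Il34, Csf1 and Csf3 rose and Csf2 fell. The Il1b call was lost in 9 of 12 fits without 1 library, without the low-count filter and with replicate number as a block. The Csf2 call was lost with upper-quartile scaling. Because 68.4% of the 18108 genes tested were called in this comparison (37.1% higher and 31.3% lower), a call by itself sets a gene little apart from the rest. The median log2 fold change of the 9 genes was 0.71, against 0.07 over all genes tested. The average combines effects that differ between the labels for several genes, as given by label below. The share of counts from mitochondrial genes also moved with paclitaxel, from 0.65% ± 0.09 (SD, n = 3) to 0.88% ± 0.03 in EV-proficient cells and from 0.64% ± 0.08 to 1.27% ± 0.19 in EV-deficient cells, and its part in these values was not tested. At least 2-fold changes were seen in 4 genes: Il15 (1.88 ± 0.24, SE, on the log2 scale), Il33 (1.44 ± 0.25), Il11 (1.06 ± 0.14) and Il1a (1.00 ± 0.09). Smaller increases were 0.36 ± 0.06 for Il34, 0.34 ± 0.07 for Csf1 and 0.25 ± 0.04 for Csf3. Csf2 fell by 0.25 ± 0.07, or by 0.12 with upper-quartile scaling. In bulk RNA, a change in the number of cells that express a gene and a change in RNA per cell cannot be told apart. The labels do not say that replicates were separate cultures, so p-values measure the spread between these libraries, which may be technical.

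Within each label, 7 of the 9 genes tested were called in EV-proficient cells (6 higher, 1 lower), where 58.2% of all genes tested were called (31.1% higher, 27.1% lower). In EV-deficient cells 6 were called (5 higher, 1 lower), where 62.9% of all genes were (32.4% higher, 30.5% lower). With most of the genes tested called, these counts set the cytokines little apart, and the genes differed in size and direction. Il1a, Il15 and Il34 rose under both labels. Il11, Csf2 and Csf3 rose in EV-proficient cells, and Il33 and Csf1 rose in EV-deficient cells. Csf1 fell in EV-proficient and Csf2 fell in EV-deficient cells. The difference between the 2 paclitaxel effects, EV-deficient minus EV-proficient, was tested as an interaction and called for 6 of the 9 genes (2 higher, 4 lower), against 40.7% of all genes tested (16.9% higher, 23.8% lower). These comparisons share libraries and are not independent of each other.

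**Figure D2:**
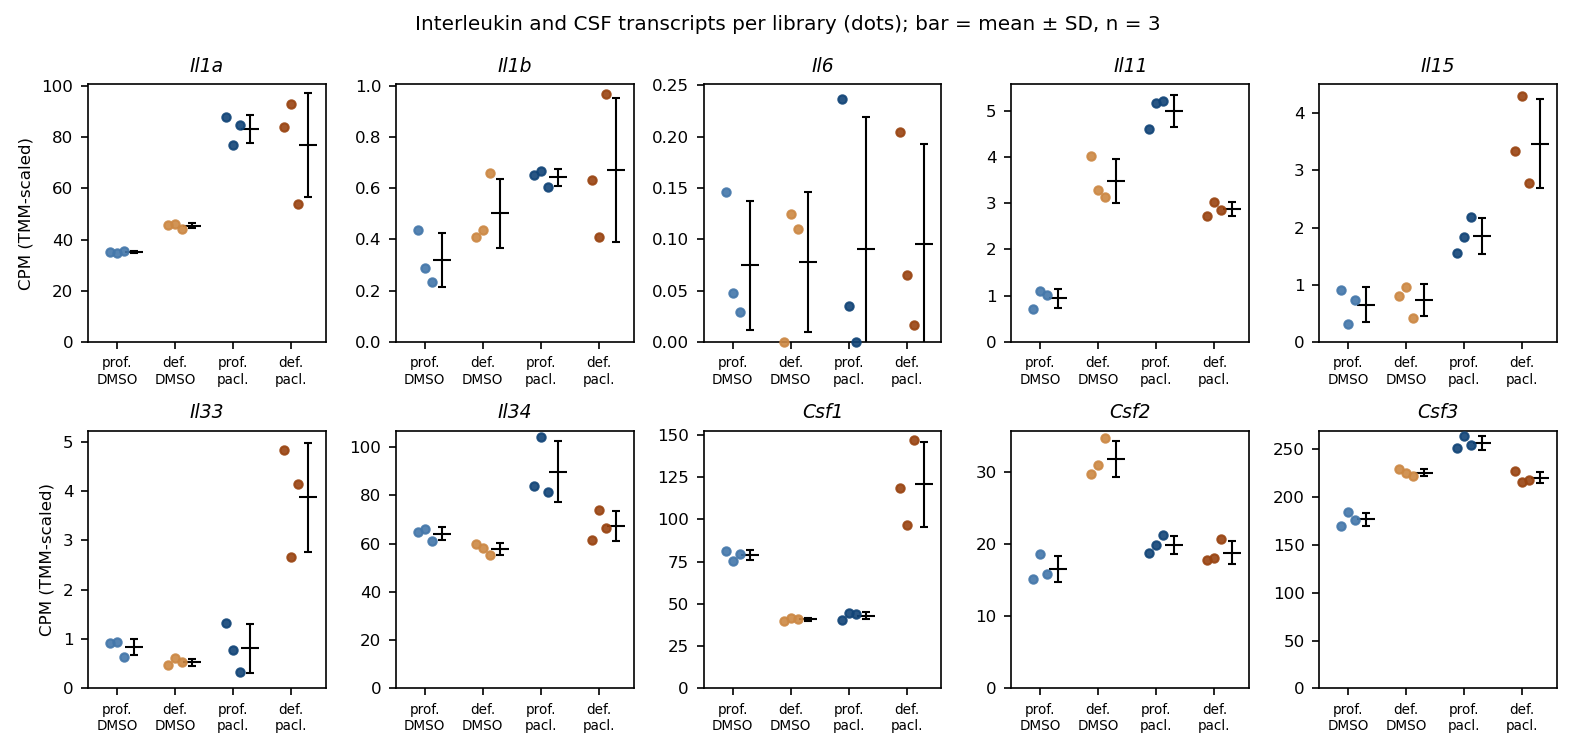
CPM on scaled library sizes (y axes, linear from 0) of the 10 genes in the 4 groups, with dots for libraries, bars for means and error bars for the SD (n = 3). Il1a and Il15 are higher in both paclitaxel groups, Il33 is highest in EV-deficient paclitaxel (2.66 to 4.83 CPM), and Il6 stays near 0 throughout.

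IL-1 family. Il1a, the membrane-bound and nuclear alarmin form of IL-1, lies on chromosome 2 (chr2:129299610-129309972, minus strand, GRCm38, as all gene positions below). It had 35.3, 34.9 and 35.5 CPM in the 3 EV-proficient DMSO libraries and 45.9, 46.2 and 44.2 in EV-deficient DMSO. Under paclitaxel it had 87.9, 77.0 and 84.8 CPM in EV-proficient and 84.2, 93.0 and 53.9 in EV-deficient cells. Every paclitaxel library was above every DMSO library, and EV-deficient paclitaxel replicate 3 was the lowest of the 6. The paclitaxel effect was 1.24 ± 0.13 (SE, log2) in EV-proficient cells (edgeR adjusted p = 2.49e-08) and 0.76 ± 0.12 in EV-deficient cells (edgeR adjusted p = 1.33e-05). These differed by -0.48 ± 0.17 (edgeR adjusted p = 0.0317), but the call was lost in 4 fits without 1 library (EV-proficient DMSO replicate 2, EV-deficient DMSO replicate 1, and EV-proficient paclitaxel replicates 1 and 3), and without EV-deficient paclitaxel replicate 3 the difference was -0.24. Between the DMSO groups Il1a was higher in EV-deficient cells by 0.37 ± 0.13 (edgeR adjusted p = 0.0372), a call kept, among the 12 fits without 1 library, only without EV-deficient paclitaxel replicate 2 or 3 (0.33 to 0.39 over the 12). Under paclitaxel the EV labels overlapped.

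Il1b, the secreted IL-1 that needs caspase-1 to mature, lies 54.6 kb from Il1a (chr2:129364570-129371139, minus strand) and was near the floor. It had 8 to 59 counts per library and group means of 0.32 ± 0.11 CPM (SD, n = 3) in EV-proficient DMSO and 0.50 ± 0.14 in EV-deficient DMSO. Under paclitaxel the means were 0.64 ± 0.03 in EV-proficient and 0.67 ± 0.28 in EV-deficient cells. Its groups, ordered by mean, overlapped with their neighbours. In EV-proficient cells, each paclitaxel library (0.61 to 0.67 CPM) was above each DMSO library (0.23 to 0.44). Such separation was seen for 62.3% of all genes tested. The paclitaxel effect there, 1.00 ± 0.45 (SE, log2, edgeR adjusted p = 0.0616), was not called, nor was 0.43 ± 0.41 in EV-deficient cells (edgeR adjusted p = 0.379). The averaged increase of 0.71 ± 0.30 (edgeR adjusted p = 0.043) was its only call, and it was kept in 3 of 12 fits without 1 library, those without EV-proficient DMSO replicate 1, EV-deficient DMSO replicate 3 or EV-deficient paclitaxel replicate 2 (0.51 to 0.85 over the 12). Exons of Il1b overlap an antisense gene, Il1bos, and exons of Il1a overlap Gm14023 on the other strand. Whether the counting used strand is not given in the sources used here, so reads of such pairs may be mixed.

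Il33, a nuclear alarmin of barrier tissues that signals through ST2 (Il1rl1), lies at chr19:29925114-29960718, plus strand. It had 0.93, 0.93 and 0.64 CPM in EV-proficient DMSO and 0.46, 0.60 and 0.53 in EV-deficient DMSO. With paclitaxel the values were 1.32, 0.77 and 0.32 CPM in EV-proficient and 4.83, 2.66 and 4.13 in EV-deficient cells. All 3 EV-deficient paclitaxel libraries were above the other 9, and the EV-proficient paclitaxel libraries spanned both DMSO groups. The paclitaxel effect in EV-deficient cells was 2.87 ± 0.35 (SE, log2, edgeR adjusted p = 3.27e-07), and in EV-proficient cells 0.02 ± 0.36 (edgeR adjusted p = 0.972). Their difference was 2.85 ± 0.50 (edgeR adjusted p = 9.91e-05).

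Cytokines that signal through gp130, and IL-15. Il6, a classical SASP cytokine made by many senescent cells (chr5:30013114-30019981, plus strand), was at or near 0 in these cells. It had 6, 2 and 1 counts in EV-proficient DMSO, 0, 6 and 5 in EV-deficient DMSO, 12, 2 and 0 in EV-proficient paclitaxel and 11, 3 and 1 in EV-deficient paclitaxel. The groups overlapped throughout, and counts of this size show no direction. Il6 did not pass the filter on low counts and was not tested, although the promoter window printed above holds kB, C/EBP and AP-1 type letters.

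Il11, a gp130 cytokine linked to fibrosis and tumour growth (chr7:4772373-4782859, minus strand), had separate levels in the 4 groups. It had 0.71, 1.10 and 1.02 CPM in EV-proficient DMSO and 4.02, 3.29 and 3.14 in EV-deficient DMSO. Under paclitaxel it had 4.61, 5.17 and 5.22 CPM in EV-proficient and 2.72, 3.03 and 2.86 in EV-deficient cells. EV-proficient DMSO was lowest, and no group overlapped with another on scaled totals. With unscaled totals the EV-deficient means were 3.15 CPM under DMSO and 3.25 under paclitaxel, the reverse of their scaled order. Il11 rose by 2.40 ± 0.21 (SE, log2) with paclitaxel in EV-proficient cells (edgeR adjusted p = 2.32e-09). In EV-deficient cells the value was -0.28 ± 0.18 (edgeR adjusted p = 0.189). The difference of these effects was -2.68 ± 0.28 (edgeR adjusted p = 9.87e-08). Il11 was higher with the EV-deficient label under DMSO by 1.89 ± 0.21 (edgeR adjusted p = 5.15e-07) and lower under paclitaxel, by -0.80 ± 0.18 (edgeR adjusted p = 0.00158).

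IL-15, a cytokine that supports natural killer and CD8 T cells and is displayed on IL-15 receptor alpha, is encoded by Il15 (chr8:82331632-82403222, minus strand). Il15 had 0.90, 0.31 and 0.73 CPM in EV-proficient DMSO and 0.80, 0.96 and 0.42 in EV-deficient DMSO. In paclitaxel libraries it reached 1.56, 1.83 and 2.19 CPM in EV-proficient and 3.34, 4.30 and 2.77 in EV-deficient cells. The DMSO groups overlapped, each paclitaxel library was above all 6 DMSO libraries, and EV-deficient paclitaxel was above EV-proficient paclitaxel. The increase was 1.51 ± 0.35 (SE, log2) in EV-proficient cells (edgeR adjusted p = 0.000812) and 2.24 ± 0.33 in EV-deficient cells (edgeR adjusted p = 3.82e-06). The difference of 0.74 ± 0.48 between these increases was not called (edgeR adjusted p = 0.241). Under paclitaxel Il15 was higher with the EV-deficient label by 0.91 ± 0.31 (edgeR adjusted p = 0.024), a call lost without any 1 of 4 libraries, replicates 1 and 2 of both paclitaxel groups (0.74 to 1.05 over 12 fits).

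Ligands of CSF1R. Csf1 encodes macrophage colony-stimulating factor (chr3:107741048-107760469, minus strand) and moved in opposite directions under the EV labels. It had 81.3, 75.7 and 79.7 CPM in EV-proficient DMSO and 40.0, 41.6 and 41.1 in EV-deficient DMSO. With the drug its values were 40.6, 44.4 and 43.9 CPM in EV-proficient and 118.6, 96.9 and 147.0 in EV-deficient cells. EV-deficient DMSO and EV-proficient paclitaxel overlapped at the low end, and EV-deficient paclitaxel was above every other library. Csf1 fell by 0.88 ± 0.10 (SE, log2) in EV-proficient cells (edgeR adjusted p = 1.53e-07) and rose by 1.56 ± 0.10 in EV-deficient cells (edgeR adjusted p = 1.56e-11). The difference was 2.44 ± 0.14 (edgeR adjusted p = 1.15e-11). The EV-deficient label was lower under DMSO, by -0.95 ± 0.10 (edgeR adjusted p = 2.92e-07), and higher under paclitaxel, by 1.49 ± 0.10 (edgeR adjusted p = 3.36e-10). This is the order in which the dngfr row ran, and the part of line or label in it was not tested.

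Il34, the second ligand of CSF1R (chr8:110741829-110805924, minus strand), did not follow Csf1. It had 64.9, 66.3 and 61.1 CPM in EV-proficient DMSO and 59.9, 58.3 and 55.3 in EV-deficient DMSO. Under paclitaxel it had 83.9, 104.3 and 81.5 CPM in EV-proficient and 61.6, 74.0 and 66.6 in EV-deficient cells. EV-proficient paclitaxel was above all other libraries, with replicate 2 highest. The increase was 0.49 ± 0.09 (SE, log2) in EV-proficient cells (edgeR adjusted p = 4.18e-05), or 0.31 without EV-proficient paclitaxel replicate 2. In EV-deficient cells it was 0.22 ± 0.09 (edgeR adjusted p = 0.0287), a call lost without any 1 of the 3 EV-deficient DMSO libraries or EV-deficient paclitaxel replicate 2 (0.15 to 0.27 over 12 fits). Under paclitaxel Il34 was lower with the EV-deficient label by -0.42 ± 0.09 (edgeR adjusted p = 0.000509). Exons of Il34 overlap Gm15894 and Gm15895 on the other strand.

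Granulocyte factors. Csf2 (chr11:54247271-54249667, minus strand) had 15.2, 18.7 and 15.8 CPM in EV-proficient DMSO and 29.9, 31.0 and 34.8 in EV-deficient DMSO. Paclitaxel libraries held 18.7, 19.9 and 21.2 CPM in EV-proficient and 17.8, 18.1 and 20.8 in EV-deficient cells. EV-deficient DMSO stood above the other 9 libraries, and the other groups overlapped in order of their means. Csf2 fell by 0.76 ± 0.10 (SE, log2) with paclitaxel in EV-deficient cells (edgeR adjusted p = 5.55e-07). In EV-proficient cells it rose by 0.26 ± 0.10 (edgeR adjusted p = 0.0279), a call kept among 12 fits only without EV-proficient DMSO replicate 2 or any 1 of the EV-deficient DMSO libraries (0.18 to 0.36 over the 12). The effects differed by -1.02 ± 0.14 (edgeR adjusted p = 4.2e-06). Under DMSO the EV-deficient label was higher by 0.94 ± 0.10 (edgeR adjusted p = 2.38e-07). Exons of Csf2 overlap Gm12223 on the other strand.

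Csf3 (chr11:98701263-98703629, plus strand) had 170.3, 184 and 176 CPM in EV-proficient DMSO and 229.6, 225 and 222 in EV-deficient DMSO. After paclitaxel it had 251, 265 and 255 CPM in EV-proficient and 227, 216 and 219 in EV-deficient cells. EV-proficient DMSO was below all other libraries and EV-proficient paclitaxel above them, with the EV-deficient groups overlapping in between. The increase in EV-proficient cells was 0.54 ± 0.06 (SE, log2, edgeR adjusted p = 3.06e-08). In EV-deficient cells the value was -0.03 ± 0.06 (edgeR adjusted p = 0.629), which upper-quartile scaling turned to 0.15 (edgeR adjusted p = 0.0132). The effects differed by -0.57 ± 0.08 (edgeR adjusted p = 4.4e-06). The EV-deficient label was higher under DMSO by 0.35 ± 0.06 (edgeR adjusted p = 5.63e-05) and lower under paclitaxel by -0.22 ± 0.06 (edgeR adjusted p = 0.00312), the latter not called with upper-quartile scaling (-0.12).

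**Figure D3:**
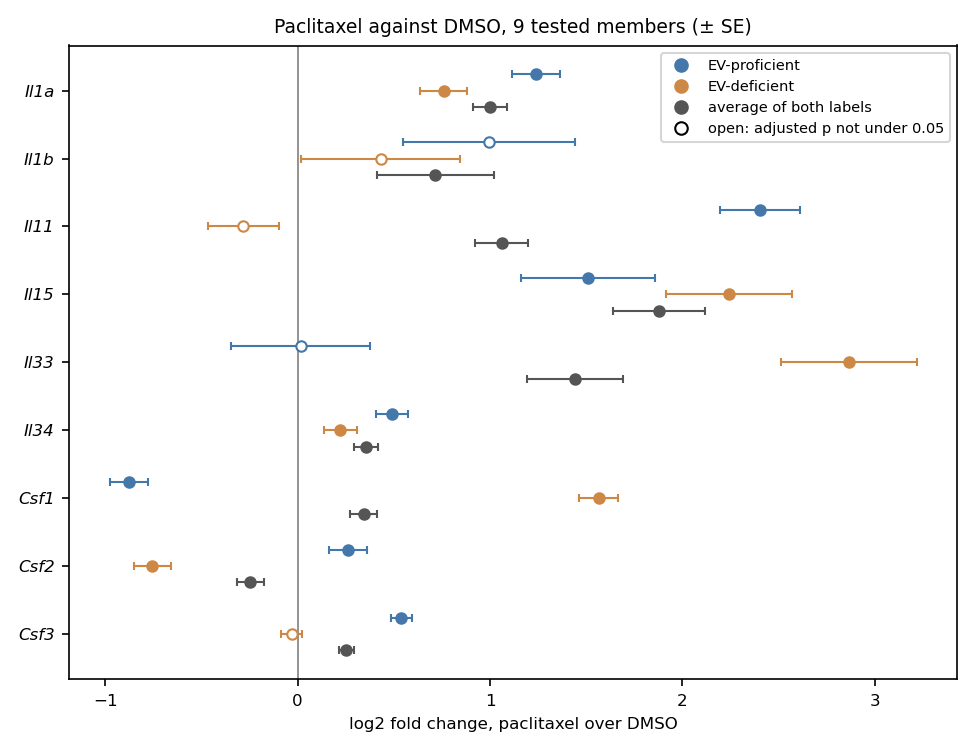
Log2 fold change of paclitaxel against DMSO (x axis) for the 9 genes tested, by EV label and averaged over both, with the SE as error bars and filled points where the edgeR adjusted p was under 0.05. Csf1 lies at -0.88 in EV-proficient and 1.56 in EV-deficient cells, and Il11 at 2.40 and -0.28.

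Across the EV labels, EV-deficient against EV-proficient, 5 of the 9 genes were called under DMSO, where 23% of all genes tested were called (12.4% higher, 10.6% lower): Il1a, Il11, Csf2 and Csf3 were higher and Csf1 lower. Under paclitaxel 6 were called, against 37.8% of all genes (16% higher, 21.8% lower): Il15, Il33 and Csf1 were higher and Il11, Il34 and Csf3 lower. Il11, Csf1 and Csf3 were called in both comparisons with opposite signs. The share of all genes tested that did so was not computed, so this does not set the 3 genes apart. Libraries of the EV labels did not overlap under DMSO for Il1a, Il11, Il33, Il34, Csf1, Csf2 and Csf3, as for 43.3% of all genes tested. Under paclitaxel they did not overlap for Il11, Il15, Il33, Il34, Csf1 and Csf3, as for 44.1% of all genes tested. Upper-quartile scaling moved the share of higher calls over all genes from 42.4% to 58.2% in the paclitaxel comparison, from 41.4% to 53.9% for the interaction and from 51.5% to 63.4% for paclitaxel in EV-deficient cells.

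**Figure D4:**
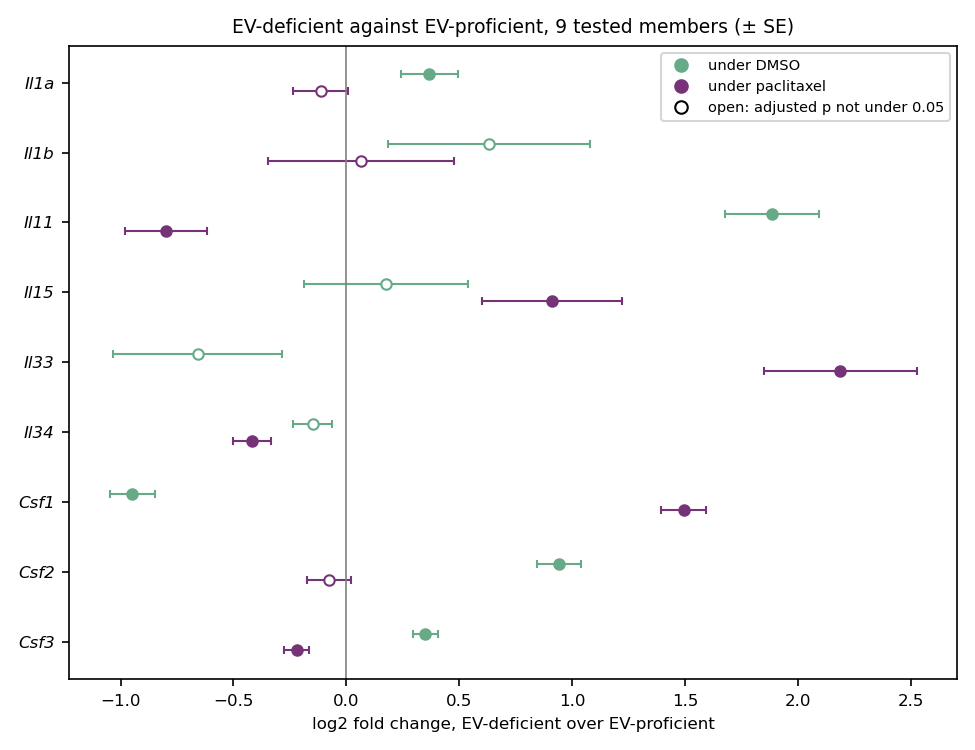
Log2 fold change of EV-deficient against EV-proficient (x axis) under DMSO and under paclitaxel for the 9 genes tested, with the SE as error bars and filled points where the edgeR adjusted p was under 0.05. Csf1 lies at -0.95 and 1.49 and Il11 at 1.89 and -0.80, on opposite sides of 0.

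Compared per kilobase of exon, the 10 genes split into 5 with at least 7.75 CPM per kilobase in every group mean (Csf3, Il34, Csf2, Il1a and Csf1) and 5 with at most 2.40 (Il11, Il33, Il15, Il1b and Il6). Csf3 was the highest, with means of 125, 160 and 182 CPM per kilobase in EV-proficient DMSO, EV-deficient DMSO and EV-proficient paclitaxel, and 156 in EV-deficient paclitaxel. The mean of Il6, the lowest, was 0.031 to 0.039 CPM per kilobase. Il1a had 17.8 CPM per kilobase in EV-proficient DMSO, below Csf2 (20.7) and Il34 (32.7). In EV-deficient paclitaxel Il1a had 39.0 ± 10.4 (SD, n = 3) and Il34 34.4 ± 3.19, which differ by less than their spread. In EV-proficient paclitaxel Il1a had 42.2 and Il34 45.9. The ratio of the highest to the lowest group mean was 7.29 for Il33, 5.36 for Il15, 5.29 for Il11, 2.95 for Csf1 and 2.36 for Il1a. Il1b had a ratio of 2.10, Csf2 1.92, Il34 1.56 and Csf3 1.45. Il6 had 1.28, on 0 to 12 counts per library, which is too few to compare.

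**Figure D5:**
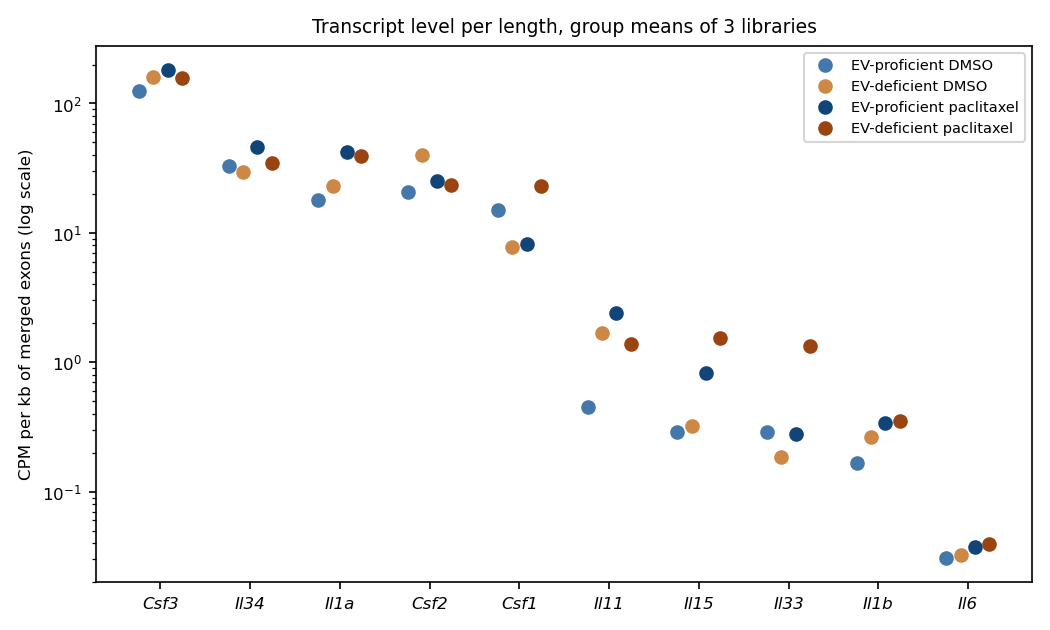
Mean CPM per kilobase of merged exons (log axis) of the 10 genes in the 4 groups (points, n = 3, no error bars). Csf3 lies at 125 to 182 and Il6 at 0.031 to 0.039 CPM per kilobase.

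Among 15 receptors and co-receptors, 12 passed the filter on low counts. Averaged over the EV labels, paclitaxel raised 6 and lowered 2 of the 12, close to the 68.4% of all genes called. Csf1r, the receptor of CSF1 and IL-34 and a macrophage gene, averaged 0.94 ± 0.16 CPM (SD, n = 3) in EV-proficient DMSO and 12.4 ± 0.48 in EV-deficient DMSO. Under paclitaxel it averaged 11.6 ± 0.84 in EV-proficient and 5.34 ± 1.54 in EV-deficient cells. Csf1r was thus lowest in EV-proficient DMSO, where Csf1 was not low. Its paclitaxel effect was 1.20 ± 0.13 (SE, log2) on average (edgeR adjusted p = 3.01e-08), made up of 3.63 ± 0.20 in EV-proficient cells (edgeR adjusted p = 2.76e-12) and -1.22 ± 0.16 in EV-deficient cells (edgeR adjusted p = 8.2e-07). Ptprz1, a receptor of IL-34, rose by 0.66 ± 0.07 on average (edgeR adjusted p = 5.91e-08). By label it went the other way from Csf1r, with a fall of -0.36 ± 0.10 (edgeR adjusted p = 0.00544) and a rise of 1.67 ± 0.10 (edgeR adjusted p = 1.05e-11). Sdc1, a proteoglycan that binds IL-34, averaged 380 to 447 CPM in the DMSO groups and 377 in EV-proficient paclitaxel, and 207 in EV-deficient paclitaxel, a fall of -1.11 ± 0.06 (edgeR adjusted p = 3.98e-13). Its averaged change was -0.56 ± 0.04 (edgeR adjusted p = 3.64e-11).

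Il11ra1, the receptor of IL-11, had means of 2.73 CPM in EV-proficient DMSO and 6.45 in EV-deficient DMSO, and 7.41 and 3.09 in the matching paclitaxel groups. Like Il11 it rose in EV-proficient cells, by 1.46 ± 0.19 (SE, log2, edgeR adjusted p = 8.8e-07), and it fell in EV-deficient cells, by -1.07 ± 0.18 (edgeR adjusted p = 2.78e-05). Its averaged value was 0.20 ± 0.13 (edgeR adjusted p = 0.191). The shared gp130 chain, Il6st, was present at 96.9 to 118 CPM in the group means, and Il6ra at 3.27 to 7.33. Il6st changed by -0.16 ± 0.05 on average (edgeR adjusted p = 0.00417), a call lost with upper-quartile scaling. By label it was -0.28 ± 0.07 in EV-proficient cells (edgeR adjusted p = 0.000838) and -0.04 ± 0.07 in EV-deficient cells (edgeR adjusted p = 0.64). Il6ra rose by 0.80 ± 0.12 on average (edgeR adjusted p = 3.3e-06). It rose by 1.17 ± 0.16 in EV-deficient cells (edgeR adjusted p = 2.3e-06) and by 0.43 ± 0.17 in EV-proficient cells (edgeR adjusted p = 0.0331), the latter lost without any 1 of 6 libraries: EV-proficient DMSO replicate 2, EV-proficient paclitaxel replicates 1 and 2, and the EV-deficient paclitaxel libraries (0.28 to 0.54 over 12 fits). Il15ra, which presents IL-15, had means of 1.81 and 2.67 CPM under DMSO and 4.53 and 3.58 under paclitaxel, in EV-proficient and EV-deficient cells. Il15ra rose by 0.87 ± 0.15 on average (edgeR adjusted p = 2.21e-05). It rose in EV-proficient cells (1.32 ± 0.21, edgeR adjusted p = 1.86e-05), while its value in EV-deficient cells was 0.42 ± 0.20 (edgeR adjusted p = 0.077). Of the signalling chains of IL-15, Il2rg rose by 1.82 on average and by 3.19 in EV-deficient cells, the latter on 6, 3 and 3 counts under DMSO and 51, 7 and 68 under paclitaxel. Its value in EV-proficient cells was 0.45 ± 0.65 (edgeR adjusted p = 0.576), and Il2rb was not tested. Il1r1, the receptor of both IL-1 forms, had means of 18.3 to 28.7 CPM, and its partner Il1rap 26.4 to 35.3. Il1rap had no paclitaxel call. It was lower with the EV-deficient label under DMSO (-0.30) and under paclitaxel (-0.28), calls lost in 4 and 3 fits without 1 library. Il1r1 fell by 0.38 in EV-proficient cells and rose by 0.53 in EV-deficient cells, and its averaged value of 0.08 was not called. Il1rl1, the receptor of IL-33, had means of 2.1 to 2.9 CPM and no call in any comparison. Csf2ra rose by 0.68 on average and under both labels, by 0.87 ± 0.14 (edgeR adjusted p = 1.49e-05) and 0.49 ± 0.14 (edgeR adjusted p = 0.00366). Csf2rb, with at most 9 counts in a library, and Csf3r, with at most 5, were not tested, so the receptors of the ligands Csf2 and Csf3 were incomplete or near 0 here.

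Of 11 genes listed for processing and release, paclitaxel raised 7 and lowered 2 in the averaged comparison, against 37.1% of all genes tested called higher and 31.3% lower. Casp1, the protease that matures IL-1 beta, had 1 to 8 counts in each DMSO library and means of 1.92 CPM in EV-proficient and 3.6 in EV-deficient paclitaxel. Its averaged increase was 4.71 ± 0.28 (SE, log2, edgeR adjusted p = 1.96e-12), a fitted value that depends on the low DMSO counts. Casp4, an inflammatory caspase, rose by 3.53 ± 0.16 (edgeR adjusted p = 6.08e-14). Gsdmd, the pore-forming gasdermin, rose by 1.59 ± 0.10 (edgeR adjusted p = 9.18e-12), and Nlrp3, an inflammasome sensor, by 1.08. Casp1, Casp4 and Gsdmd rose under both labels, while Nlrp3 was at 1.29 in EV-proficient cells, a call lost without EV-proficient DMSO replicate 2 or EV-proficient paclitaxel replicate 1 (1.03 to 1.61 over 12 fits), and at 0.875 in EV-deficient cells, which was not called. Capn2, a calpain subunit, fell by 0.74 on average and in EV-proficient cells fell by 1.26. In EV-deficient cells it fell by 0.21, a call lost with upper-quartile scaling. Between the EV labels, 3 of the 11 were called under DMSO, each lower with the EV-deficient label, and 6 under paclitaxel, each higher, by the edgeR test. Over all genes tested, 12.4% were called higher and 10.6% lower under DMSO, and 16% higher and 21.8% lower under paclitaxel. The 3 lower under DMSO, Capn2 and also Capn1 and Adam17, which fall outside the rule for naming and were chosen after their values were seen, were among the 6 higher under paclitaxel.

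Of 13 transcription factors, 6 rose and 5 fell in the averaged comparison, mixed signs as over all genes tested, of which 68.4% were called. Cebpd rose by 1.96 ± 0.13 (SE, log2, edgeR adjusted p = 2.35e-11) and Cebpb by 1.37 ± 0.13 (edgeR adjusted p = 3.01e-09). The rise was called under both labels for each. Both encode C/EBP factors of the inflammatory response. Of the 5 NF-kB subunit genes, whose values fall outside the rule for naming and were chosen after they were seen, Rela (-0.53), Nfkb2 (-0.49), Nfkb1 (-0.36) and Rel (-0.36) fell and Relb (0.27) rose, each by the edgeR test. By label, the fall of Rel was called only in EV-deficient cells, with -0.10 in EV-proficient cells (edgeR adjusted p = 0.355). Rela, Nfkb2, Nfkb1 and Relb were called in the same direction under both labels. Gata4, a factor linked to the SASP, had means of 8.62 and 1.75 CPM in EV-proficient and EV-deficient DMSO, and 2.14 and 7.23 under paclitaxel. Like Csf1 it was higher in EV-proficient DMSO and EV-deficient paclitaxel, and its difference between the paclitaxel effects was 4.07 ± 0.25 (edgeR adjusted p = 2.2e-11). Its averaged value was 0.01 ± 0.12 (edgeR adjusted p = 0.925). Irf1, an interferon-response factor, rose by 0.87 on average, by 0.60 in EV-proficient and by 1.13 in EV-deficient cells. Fosl1, an AP-1 subunit, fell by 0.80 on average and fell by 1.53 in EV-deficient cells, with a value of -0.066 in EV-proficient cells that was not called. Of 7 regulators of cytokine mRNA stability, 4 rose and 2 fell in the averaged comparison, against 37.1% of all genes called higher and 31.3% lower. Among them Zfp36l1, an mRNA decay factor, rose by 0.88 on average, by 1.30 in EV-proficient and by 0.455 in EV-deficient cells. Of 9 antagonists and feedback inhibitors, 2 rose and 2 fell, a smaller share than the 68.4% over all genes. Il18bp, which binds IL-18, fell by 0.65 on average and fell by 1.06 in EV-proficient cells, with a value of -0.25 in EV-deficient cells that was not called.

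The genes whose levels ran most like each of the 8 cytokine genes with a mean of at least 1 CPM over the 12 libraries were found by the root mean square difference of centred log2 CPM, a description with no test. For Csf3 these were Elmod3 (0.056) and Nprl2 (0.057), and for Il34 they were Acads (0.068) and Ptk7 (0.088). For Il1a they were Ube2b (0.114) and Cir1 (0.116). For Csf2 they were Id2 (0.182) and Gramd4 (0.191), and for Csf1 Mical2 (0.195) and Syn1 (0.202). Il11 ran closest to Sparc (0.227) and St6galnac4 (0.232), Il15 to Lcp1 (0.266) and Gpx3 (0.321), and Il33 to Hacd4 (0.339) and Cd34 (0.367). None of the 8 was among the nearest genes of another. The cytokine genes' own spread over the libraries, on the same scale, ran from 0.196 for Csf3 to 1.157 for Il33. The differences depend on this spread, so they do not rank the 8 genes by likeness. Il1b and Il6 were below the level required and were not compared.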

How the data were processed

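RNA of 12 MOC2 libraries was sequenced from a stranded poly(A) kit, per the labels' protocols. The authors deposited raw counts per gene for all libraries in 1 table. Reads were aligned with STAR 2.5.0a to GRCm38, per the submitters' processing notes, and the counter and annotation release are not given in the sources used here. Counts of the 55421 genes (the 2 added rows left out) were tested in R 4.3.3 with edgeR 4.0.16: TMM scaling, filterByExpr (minimum count 10, leaving 18108 genes), glmQLFit with 1 mean per group over all 12 libraries, glmQLFTest for 6 comparisons and Benjamini-Hochberg adjustment over all genes tested, with 0.05 as threshold. CPM use TMM-scaled totals, and lengths are merged exons of GENCODE (GRCm38).

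All 10 members are named; of 55 receptor, antagonist, processing, transcription factor and mRNA stability genes, all receptors are named, and others where called with an absolute log2 fold change of at least 1 (5 NF-kB subunits, Capn1 and Adam17 were added after their values were seen). Likeness was found for members with a mean of at least 1 CPM, among all genes tested other than those with clone names (prior count 2). The members and lists were chosen with earlier results of these data known. Replicates of a group differed by more than sampling noise in all 12 pairs (chi-square per degree of freedom 4.20 to 27.8). Alternatives were other scalings and filters, DESeq2 1.42.0, limma 3.58.1, a replicate block, only the groups compared, each library left out, and unscaled totals for levels. The test was checked on simulated counts in which few genes were changed, in EV-deficient paclitaxel only. For paclitaxel in EV-deficient cells it recovered 55.9% of 1.5-fold and 79.7% of 4-fold changes. For the interaction it recovered 45.6% and 71.9%. Because few genes changed there, it does not check the scaling where most genes are called.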

Additional observations from a re-analysis of the deposited data

Results flagged for a closer look

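The paclitaxel effect differed between the EV labels, by the interaction in the edgeR quasi-likelihood test, for 6 of the 9 genes tested. The log2 difference, EV-deficient minus EV-proficient, was 2.85 for Il33 and 2.44 for Csf1. It was -2.68 for Il11, -1.02 for Csf2, -0.57 for Csf3 and -0.48 for Il1a. The Il1a call was lost in 4 of 12 fits without 1 library and with upper-quartile scaling, the 1 CPM filter and DESeq2, and its value was -0.24 without EV-deficient paclitaxel replicate 3. Over all genes tested 40.7% were called in this comparison. These values rest on the EV labels, and an exchange of labels within 1 treatment, which was not tested, would change their sizes and, for some genes, their signs.

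The added row dngfr, which no comparison used, averaged 10.9 CPM in EV-deficient paclitaxel and 2.15 CPM in EV-deficient DMSO, while in EV-proficient cells it averaged 3.24 CPM under paclitaxel and 8.99 CPM under DMSO. What this row marks is not given in the sources used here.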

How the results depend on the processing

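Of 54 gene-by-comparison tests of the cytokines, 39 were called and 31 of these were called in every fit run. No called value changed sign. The count of cytokine genes called stayed within 1 of the value reported in every alternative. Calls lost in fits other than those without 1 library were Il1b averaged (no filter, replicate block), Csf2 averaged (upper-quartile, -0.12), Csf3 between the labels under paclitaxel, Il1a between the labels under DMSO (upper-quartile, DESeq2, limma-voom) and the Il1a interaction (upper-quartile, filter at 1 CPM, DESeq2). Calls were also gained without a change of sign. The Il34 interaction was called in 2 fits other than those without 1 library. Il34 between the labels under DMSO, and Il1b with paclitaxel in EV-proficient cells, were each called in 1 such fit and in 1 fit without 1 library. Signs of uncalled values turned as follows, and the cause was not tested. Il33 with paclitaxel in EV-proficient cells (0.017) was -0.006 with RLE scaling, -0.017 with DESeq2, -0.061 with limma-voom, and -0.54 to 0.28 without 1 library. Csf3 with paclitaxel in EV-deficient cells (-0.032) was 0.152 with upper-quartile scaling and 0.032 with the 1 CPM filter. Csf2 between the labels under paclitaxel (-0.076) was 0.019 with upper-quartile scaling. Without 1 library, the label difference under paclitaxel ran from -0.295 to 0.32 for Il1b and from -0.26 to 0.091 for Il1a, and that of Il15 under DMSO from -0.16 to 0.52. Upper-quartile scaling shifted the median of all genes by 0.183 for paclitaxel in EV-deficient cells. Same-numbered replicates did not deviate together (correlations -0.081 to 0.097, and 5 of 12 libraries closest to their own number), so the numbers were not taken as pairing. With the replicate block 7, 6, 8, 5, 6 and 7 genes were called (EV-proficient, EV-deficient, averaged, labels under DMSO, labels under paclitaxel, interaction), Il33 in EV-proficient cells was -0.039 and Il1b between the labels under paclitaxel was -0.001. Of 90 pathway calls examined, 77 were kept in every fit run. These include the pathway calls given above by value except those of Il6ra, Il6st, Il1rap, Nlrp3 and Capn2 named there as lost. With unscaled totals 16 of 40 group levels moved by more than 1 SD. Depth limits Il6 and Il1b, which rest on few counts.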
